A study of Mus musculus with 6 samples.

Results

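Acute myeloid leukemia (AML) often carries mutations in genes that write, erase or read marks on DNA and histones, or affect these marks through metabolism. The mRNA of 10 genes that are of this kind or related to them was followed here in leukemia cells from cytarabine-treated and control mice. The genes were taken by symbol and not by a threshold on their values, though earlier results of these data were known. They are the DNA methyltransferases Dnmt1, Dnmt3a and Dnmt3b, the methylcytosine oxidases Tet1, Tet2 and Tet3, the isocitrate dehydrogenases Idh1 and Idh2, and the Polycomb-related genes Ezh2 and Asxl1. They made up 10 of the 23284 genes in the data, and all 10 reached the mean of 1 FPKM (fragments per kilobase of transcript scaled to the number of mapped fragments) that was required for testing, as 11703 genes did. The cells were C1498, a mouse AML line that carried GFP from a retrovirus and had been grown from a single clone. They were injected into the veins of young adult female C57BL/6 J mice, and on day 21 cells positive for GFP and CD49b were sorted from the bone marrow of the femur, tibia and pelvis. In the cytarabine group 3 mice had received cytarabine (AraC), a nucleoside analog that stops DNA synthesis, and the 3 control mice had not. The sample labels describe the control mice both as PBS and as not treated. Each mouse gave 1 library, and p-values therefore measure the spread between these mice, all of which carried the same clone. The mRNA level of a gene says nothing about whether the gene is mutated, and mutations in C1498 were not analysed here.

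The 10 genes are tied to marks on DNA or histones in different ways. DNMT3A and DNMT3B place methyl groups on unmethylated CpG sites, and DNMT1 copies the pattern to the new strand after replication. The TET enzymes oxidize the methyl group, a step towards its removal, and they need 2-oxoglutarate, which IDH1 makes in the cytosol and IDH2 in mitochondria. Mutant IDH enzymes make 2-hydroxyglutarate in its place, which inhibits TET enzymes. EZH2 is the catalytic subunit of Polycomb repressive complex PRC2, which methylates histone H3, and ASXL1 is a partner of the deubiquitinase BAP1, which removes ubiquitin from histone H2A. DNMT3A, TET2, IDH1, IDH2, EZH2 and ASXL1 are mutated in myeloid leukemia, and the other DNMT and TET genes are their relatives.

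The libraries differed in transcripts of several tissues and cell types. Depth was inferred from the steps between low FPKM values and ranged from 11440000 to 18760000 reads. Cd3g, a T cell receptor component, stood at 449 to 652 FPKM, while Cd4, Cd8a and Cd5 stayed under 1 FPKM in all 6 libraries, and the granule gene Mpo was at 2.33 to 12.3 FPKM in 5 libraries and at 71.1 FPKM in cytarabine 1. Itga2, which encodes the sorting marker CD49b, was at 7.79 to 8.11 FPKM in cytarabine and at 10.6 to 13.3 FPKM in control libraries. The summed level of 16 colon epithelium genes was 421, 5501 and 5909 FPKM in cytarabine 1, 2 and 3, and 2606, 33.8 and 29.1 FPKM in control 1, 2 and 3. None of these colon genes was at 0 in all libraries. Cytarabine 2, cytarabine 3 and control 1 thus formed a side with much colon transcript and the others a side with little. The 10 heart muscle genes summed to 7.998 to 792 FPKM in cytarabine and to 60.6 to 3030 FPKM in control libraries. The 10 neutrophil genes summed to 1482 FPKM in cytarabine 1, to 261 and 248 FPKM in cytarabine 2 and 3, and to 1487 to 2097 FPKM in the controls. The division by colon transcript crosses the treatment groups, and the values of the 10 genes are also given within and across it. In bulk RNA, fewer cells of a type and less RNA per cell cannot be told apart.

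The genes lie on 8 chromosomes of the mouse genome (GRCm38, the same build as mm10, with GENCODE positions). Dnmt1 is on the minus strand of chromosome 9 (20907209 to 20959888), Dnmt3a on the plus strand of chromosome 12 (3806007 to 3914443), and Dnmt3b on the plus strand of chromosome 2 (153649450 to 153687730). Tet1 is on chromosome 10 (62804570 to 62908996), Tet2 on chromosome 3 (133463679 to 133545139) and Tet3 on chromosome 6 (83362373 to 83459084), all on the minus strand. Idh1 is on chromosome 1 (65158616 to 65186500), Idh2 on chromosome 7 (80094846 to 80115392) and Ezh2 on chromosome 6 (47530139 to 47595341), also on the minus strand. Asxl1 is on the plus strand of chromosome 2 (153345829 to 153404007) like Dnmt3b. Exons on the opposite strand overlap those of Dnmt3a, Tet2, Ezh2 and Asxl1, and since the strand setting of the counting is not given in the sources used here, reads of such partners could be included in the values of these 4 genes.

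Promoter windows from 250 bases before to 50 bases after the start of transcription were read from RefSeq (GRCm38.p6), which held 15 windows for the 10 genes. They were searched on both strands for TTTGGCGC and TTTCGCGC, letters of the kind bound by E2F factors, which drive S phase genes. The letters occur in 267 of 32851 promoter windows of the genome (0.813%). Among the 10 genes they occur in Dnmt1 and Ezh2, the 2 genes with the highest FPKM. The windows of these genes are shown 5′ to 3′ on the gene's strand, with the matching letters in capitals. The Dnmt1 window, which is 1 of its 3 windows, is chr9:20952574-20952873 on the minus strand, with matches starting 34 bases after and 219 bases before the start. The Ezh2 window is chr6:47594981-47595280 on the minus strand, with a match starting 4 bases after the start.
Dnmt1: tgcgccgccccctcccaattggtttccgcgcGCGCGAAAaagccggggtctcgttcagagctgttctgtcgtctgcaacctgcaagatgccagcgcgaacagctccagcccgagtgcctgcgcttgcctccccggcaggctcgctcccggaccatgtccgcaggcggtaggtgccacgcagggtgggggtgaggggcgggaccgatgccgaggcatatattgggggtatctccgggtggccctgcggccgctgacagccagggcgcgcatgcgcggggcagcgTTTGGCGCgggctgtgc
Ezh2: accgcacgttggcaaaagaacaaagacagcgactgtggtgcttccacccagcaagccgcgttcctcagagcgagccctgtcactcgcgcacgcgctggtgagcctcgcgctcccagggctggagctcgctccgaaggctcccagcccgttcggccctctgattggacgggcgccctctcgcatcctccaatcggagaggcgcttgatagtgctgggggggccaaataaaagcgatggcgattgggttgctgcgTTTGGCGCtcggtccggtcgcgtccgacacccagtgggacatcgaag

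Windows of Tet2, Idh1 and Idh2 are shown with each CG in capitals. These genes were taken since Tet2 was the single gene of the 10 whose groups did not overlap and the IDH genes were the 2 that varied most. CG is the target of the DNMT and TET enzymes. The Tet2 window (chr3:133544341-133544640, minus strand) holds 57 CG pairs, against a median of 7 over all promoter windows, of which 99.8% hold fewer. The windows shown for Idh1 (chr1:65186430-65186729, minus strand) and Idh2 (chr7:80115301-80115600, minus strand) hold 23 and 20. Another Idh1 window (chr1:65179093-65179392, minus strand) also holds 23 and is not shown. DNA methylation was not measured in these libraries, and a match in letters is a description of the sequence.
Tet2: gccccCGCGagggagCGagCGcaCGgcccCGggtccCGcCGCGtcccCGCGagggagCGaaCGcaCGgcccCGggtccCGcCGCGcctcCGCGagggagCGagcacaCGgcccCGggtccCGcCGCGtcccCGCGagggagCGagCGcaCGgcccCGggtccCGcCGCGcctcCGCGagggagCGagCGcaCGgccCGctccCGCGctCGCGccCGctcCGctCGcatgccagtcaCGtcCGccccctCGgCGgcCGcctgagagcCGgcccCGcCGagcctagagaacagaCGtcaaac
Idh1: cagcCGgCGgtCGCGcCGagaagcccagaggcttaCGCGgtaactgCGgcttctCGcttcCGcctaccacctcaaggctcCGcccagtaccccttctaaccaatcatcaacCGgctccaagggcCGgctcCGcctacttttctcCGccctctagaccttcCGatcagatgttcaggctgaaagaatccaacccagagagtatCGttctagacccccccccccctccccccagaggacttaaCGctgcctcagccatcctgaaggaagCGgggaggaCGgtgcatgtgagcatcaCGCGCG
Idh2: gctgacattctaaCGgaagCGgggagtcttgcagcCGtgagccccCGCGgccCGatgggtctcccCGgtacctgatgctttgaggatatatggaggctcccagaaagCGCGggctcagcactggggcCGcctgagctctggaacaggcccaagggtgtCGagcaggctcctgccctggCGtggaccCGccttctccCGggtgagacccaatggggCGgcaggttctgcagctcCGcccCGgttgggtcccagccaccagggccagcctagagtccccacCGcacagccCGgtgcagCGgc

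None of the 10 genes passed the test between cytarabine and control libraries, and Tet2 was the one gene whose groups did not overlap. The 2 groups were compared for all 11703 genes on log2(FPKM + 1) with limma, and fold changes on this scale understate the change of genes with low FPKM. At an adjusted p under 0.05, 0 of the 10 genes were called, as were 0 of all genes (0.0%). At an unadjusted p under 0.05, 0 of the 10 genes passed, against 2038 of all genes (17.4%). In 1 of the 10 genes, Tet2, the values of the groups did not overlap, against 2781 of all genes (23.8%). Of these, 1274 were higher with cytarabine, as Tet2 was (10.9%). The median log2 fold change was -0.11 over the 10 genes and -0.0015 over all genes tested, and 7 of the 10 had a value below 0.

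**Figure D1:**
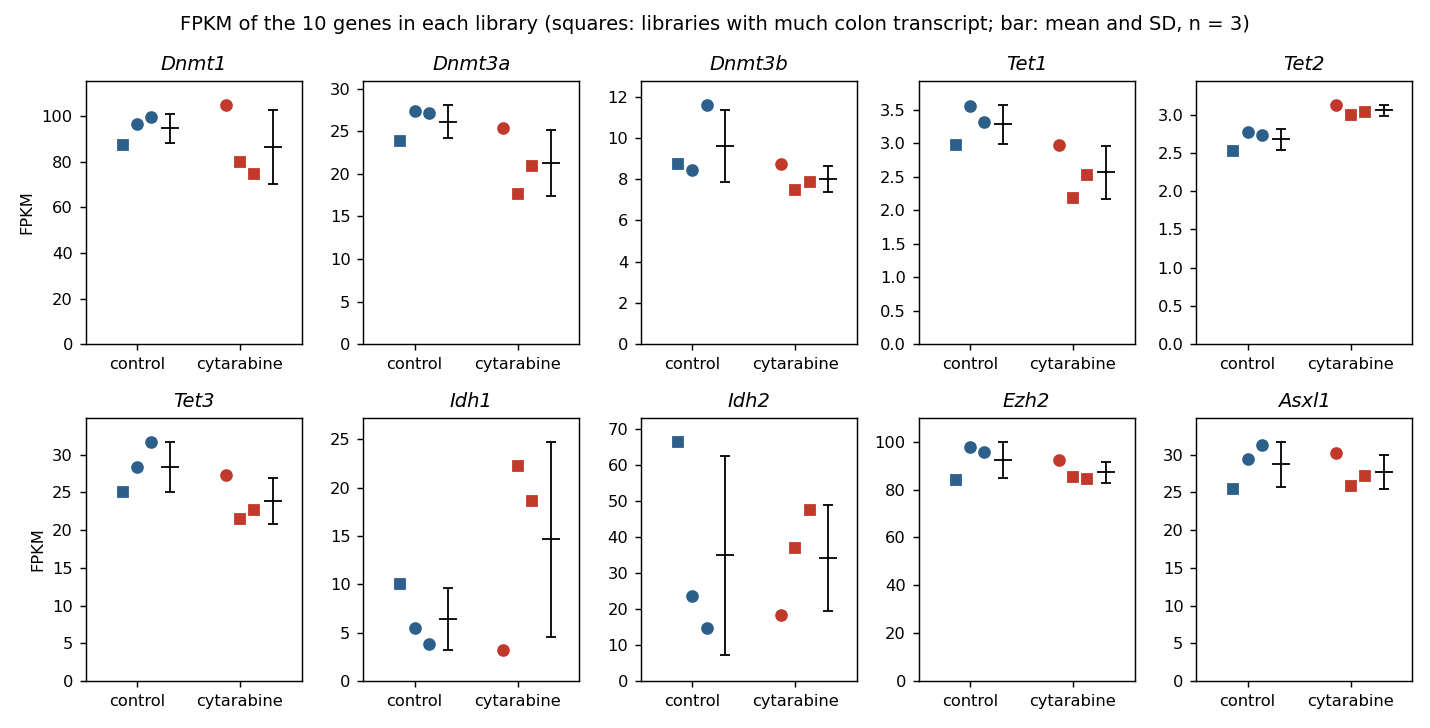
FPKM of each gene (vertical axes, from 0) in the 3 control (blue) and 3 cytarabine (red) libraries, with squares for the 3 libraries with much colon transcript and bars for the mean and SD (n = 3). Tet2 is the one gene whose 3 cytarabine points all lie above the control points, and in the Idh1 and Idh2 panels the squares lie above the circles.

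Among the methyltransferases Dnmt1, the maintenance enzyme, was the most abundant and Dnmt3b, a de novo enzyme, the least. Values are given throughout in the order of libraries 1, 2 and 3 of a group. Dnmt1 had FPKM values of 105, 79.9 and 74.6 after cytarabine, against 87.3, 96.7 and 99.8 in the controls. Its lowest values were in cytarabine 2 and 3 and its highest in cytarabine 1, so that the groups overlapped. The means were 86.5 ± 16.2 and 94.6 ± 6.48 FPKM (SD, n = 3 each), with a log2 fold change of -0.14 (95% interval -0.48 to 0.20, adjusted p = 0.574 from limma). Dnmt3a, the methyltransferase most often mutated in AML, had FPKM values of 25.3, 17.6 and 20.9 after cytarabine, against 23.9, 27.4 and 27.1 in the controls. Only cytarabine 1 exceeded the lowest control library. Its log2 fold change of -0.29 (standard error 0.14, 95% interval -0.64 to 0.05) had the smallest unadjusted p of the 10 genes, 0.0798 from limma, with an adjusted p of 0.329. Dnmt3b had FPKM values of 8.71, 7.45 and 7.84 after cytarabine, against 8.75, 8.42 and 11.6 in the controls. Its values overlapped, and control 3 stood above the other 5 libraries. The log2 fold change of Dnmt3b was -0.22 (standard error 0.14, adjusted p = 0.399 from limma). FPKM is per length, so the levels of the 3 genes may be compared. Dnmt1 made up 72.1 to 76.1% of their summed FPKM in the 6 libraries, Dnmt3a 16.8 to 20.7% and Dnmt3b 6.27 to 8.37%. Dnmt3l, the cofactor of the de novo enzymes in germ cells, was at no more than 0.191 FPKM.

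Tet3 was the main TET mRNA of these cells, and Tet2, the TET gene most often mutated in AML, was the lowest of the 10 genes with Tet1. Tet2 had FPKM values of 3.13, 3.00 and 3.04 after cytarabine, against 2.52, 2.77 and 2.74 in the controls. No control library reached the lowest of them. The means were 3.05 ± 0.0663 and 2.68 ± 0.132 FPKM (SD, n = 3 each), a ratio of 1.14. On the log2 scale Tet2 differed by 0.14 (standard error 0.12, 95% interval -0.16 to 0.44), which did not pass the test (adjusted p = 0.527 from limma). These values rest on an estimated 281 to 505 reads, for which counting alone gives an error of 5.97% at the lowest. With quantile normalization the log2 fold change of Tet2 was -0.13, on the other side of 0, and the groups overlapped, so that 0 of the 10 genes were without overlap against 21.1% of all genes. Tet1 had FPKM values of 2.98, 2.18 and 2.53 after cytarabine, against 2.98, 3.55 and 3.32 in the controls. Its groups overlapped by the narrow margin between cytarabine 1 (2.981) and control 1 (2.978). With libraries scaled by median-of-ratios factors they did not overlap, which made 2 of the 10 genes without overlap against 23.9% of all genes. With a minimum mean of 5 FPKM neither Tet1 nor Tet2 was tested, and 0 of the other 8 were without overlap against 25.8% of the genes then tested. The log2 fold change of Tet1 was -0.27 (standard error 0.15, adjusted p = 0.376 from limma). Tet3 had FPKM values of 27.4, 21.5 and 22.6 after cytarabine, against 25.1, 28.4 and 31.7 in the controls. Only cytarabine 1 reached into the control values. Limma gave Tet3 a log2 fold change of -0.24 with a standard error of 0.13 and an adjusted p of 0.354. Tet3 made up 80.3 to 84.0% of the summed FPKM of the 3 TET genes. The share of Tet2 was 9.34, 11.2 and 10.8% with cytarabine and 8.25, 7.98 and 7.24% in controls. It did not overlap either, but rests on the same Tet2 values.

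The isocitrate dehydrogenases varied more between libraries than any other of the 10 genes. Idh1 had FPKM values of 3.22, 22.2 and 18.6 after cytarabine, against 10.04, 5.43 and 3.79 in the controls. The highest library was 6.90 times the lowest, a span wider than that of 86.7% of all tested genes, whose median was 1.43. Cytarabine 2 and 3 lay above all controls, and cytarabine 1 lay below them. The means were 14.7 ± 10.1 and 6.42 ± 3.24 FPKM (SD, n = 3 each), and the log2 fold change of 0.83 had a 95% interval from -0.92 to 2.58 (adjusted p = 0.522 from limma). Idh2, the mitochondrial enzyme, had FPKM values of 18.3, 36.9 and 47.3 after cytarabine, against 66.4, 23.6 and 14.8 in the controls. The highest and the lowest library were both controls. The means of Idh2 were 34.2 ± 14.7 and 34.9 ± 27.6 FPKM (SD, n = 3 each), with a log2 fold change of 0.15 (95% interval -1.35 to 1.64, adjusted p = 0.903 from limma). The mean log2 ratio thus lay on the other side of 0 from the ratio of the means, 0.979. On the fold scale the interval runs from 0.391 to 3.13, and the values of these libraries are compatible with any change within it. Idh3a, a subunit of the NAD-dependent mitochondrial enzyme, was steady by comparison, at 110 to 123 FPKM (log2 fold change 0.02, adjusted p = 0.856 from limma).

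Ezh2 and Asxl1 were the steadiest of the 10 genes together with Tet2. Ezh2 had FPKM values of 92.2, 85.3 and 84.2 after cytarabine, against 83.8, 97.9 and 95.7 in the controls. Its highest library was 1.17 times its lowest, and only 7.77% of tested genes varied less. Ezh2 had a log2 fold change of -0.08 with a standard error of 0.08 and an adjusted p of 0.580 from limma, and the 95% interval from -0.28 to 0.12 corresponds to a fold change of 0.824 to 1.09. Asxl1 had FPKM values of 30.3, 25.8 and 27.1 after cytarabine, against 25.4, 29.4 and 31.3 in the controls. Control 1 was its lowest and control 3 its highest library. The log2 fold change of Asxl1 was -0.05 (standard error 0.10, 95% interval -0.30 to 0.21, adjusted p = 0.812 from limma). By mean level over the 6 libraries the order of the 10 genes was Dnmt1, Ezh2, Idh2, Asxl1, Tet3, Dnmt3a, Idh1, Dnmt3b, Tet1 and Tet2. In this order the ranges over the libraries were separate between Ezh2 and Idh2 and between Dnmt3b and Tet1, and all other neighbours overlapped. Within libraries Tet3 was higher than its neighbour Dnmt3a in 6 of 6. Asxl1 was higher than Tet3 in 5 of 6 libraries, as Dnmt3a was than Idh1. The remaining neighbours (Dnmt1 and Ezh2, Idh2 and Asxl1, Idh1 and Dnmt3b, Tet1 and Tet2) each changed places in 3 of 6 libraries and do not differ beyond their spread.

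**Figure D2:**
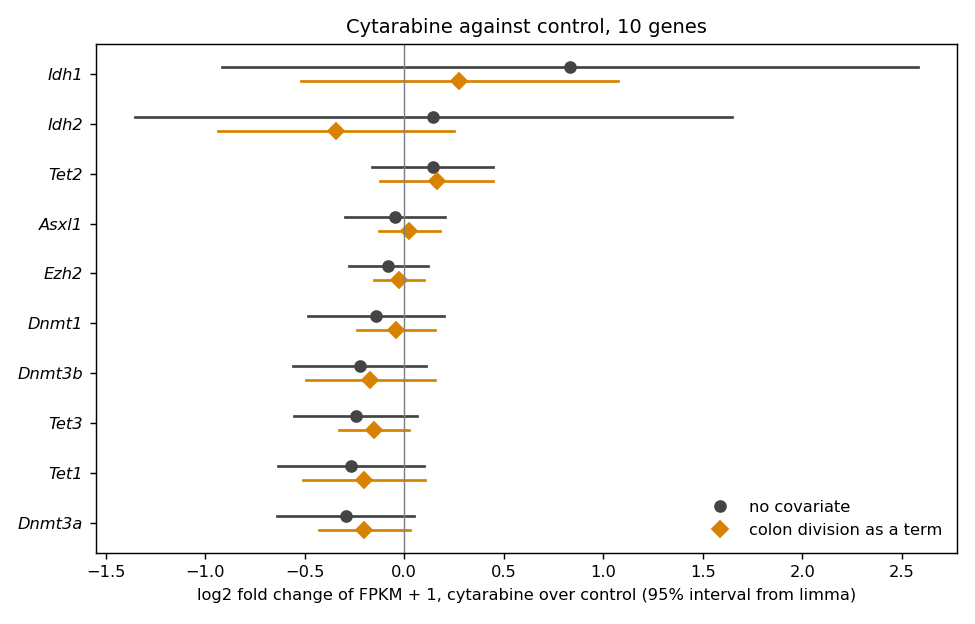
Log2 fold change of FPKM + 1, cytarabine over control, for each gene (horizontal axis) with the 95% interval from limma, without a covariate (gray) and with the colon division as a term (orange). All intervals include 0, and those of Idh1 and Idh2 are the widest.

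Ratios of related genes within a library do not change when all its values are multiplied by a factor, though they do under quantile normalization, where the log2 fold change was -0.13 for Tet2 and -0.24 for Tet3. The ratio of Tet2 to Tet3 was 0.114, 0.139 and 0.134 in cytarabine 1, 2 and 3 and 0.101, 0.0975 and 0.0862 in control 1, 2 and 3. No control library reached the treated ones, in a ratio built from the same Tet2 values that did not overlap by themselves. The mean ratio was 1.36 times higher with cytarabine, with p = 0.1 in an exact two-sided permutation test, the smallest value that 3 libraries against 3 allow, and 0.375 after adjustment over the 5 ratios tested. The ratio of Idh2 to Idh1 was 5.69, 1.66 and 2.55 with cytarabine and 6.62, 4.35 and 3.90 in controls. It lay below the control range in cytarabine 2 and 3 and inside it in cytarabine 1 (exact permutation p = 0.3, adjusted 0.375). The ratios of Ezh2 to its paralog Ezh1 (5.23 to 7.78), of Dnmt1 to Dnmt3a (3.53 to 4.53) and of Asxl1 to Asxl2 (2.55 to 3.13) overlapped between the groups, with exact permutation p-values of 0.3, 0.3 and 0.8.

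Across the colon division 8 of the 10 genes were without overlap. Of all 11703 tested genes, 17.2% were higher and another 17.2% lower in every library with much colon transcript. Idh1 and Idh2 were higher in every such library, and 2 of the 10 genes is near the share of all tested genes (2015, 17.2%). The mean of Idh1 was 16.9 ± 6.25 FPKM in those 3 libraries and 4.14 ± 1.15 FPKM in the others, a ratio of 4.09, and that of Idh2 was 50.2 ± 15.0 and 18.9 ± 4.46 FPKM, a ratio of 2.66 (SD, n = 3 each). Idh2 was highest in control 1, the library with the most heart transcript, and Idh1 in cytarabine 2, with little of it. Dnmt1, Dnmt3a, Tet1, Tet3, Ezh2 and Asxl1 were lower in every library with much colon transcript, 6 of the 10 genes against 2015 of all tested genes (also 17.2%). Their ratios of side means ran from 0.780 (Tet1) to 0.886 (Ezh2), where the median over all tested genes was 0.963. Dnmt3b and Tet2 overlapped, with ratios of 0.837 and 0.992. Of 9 tested T and NK cell genes, 3 were lower in every library with much colon transcript and 0 higher, with a median ratio of 0.803. Cd3e (0.720) and Cd3g (0.803), which encode T cell receptor components, were among the lower ones, while Cd3d, another component, overlapped with a ratio of 1.29. The ratio was 0.842 for the proliferation marker Mki67 and 0.819 for Uhrf1, the cofactor that brings DNMT1 to replicated DNA. Of 24 genes of S phase and proliferation, 12 were lower in every such library and 0 higher, with a median ratio of 0.867. All 8 smooth muscle genes were higher there. So were all 15 tested colon genes, but the score of the colon genes had itself set the sides. The part of the tissue transcripts in the values of the 10 genes was not tested.

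**Figure D3:**
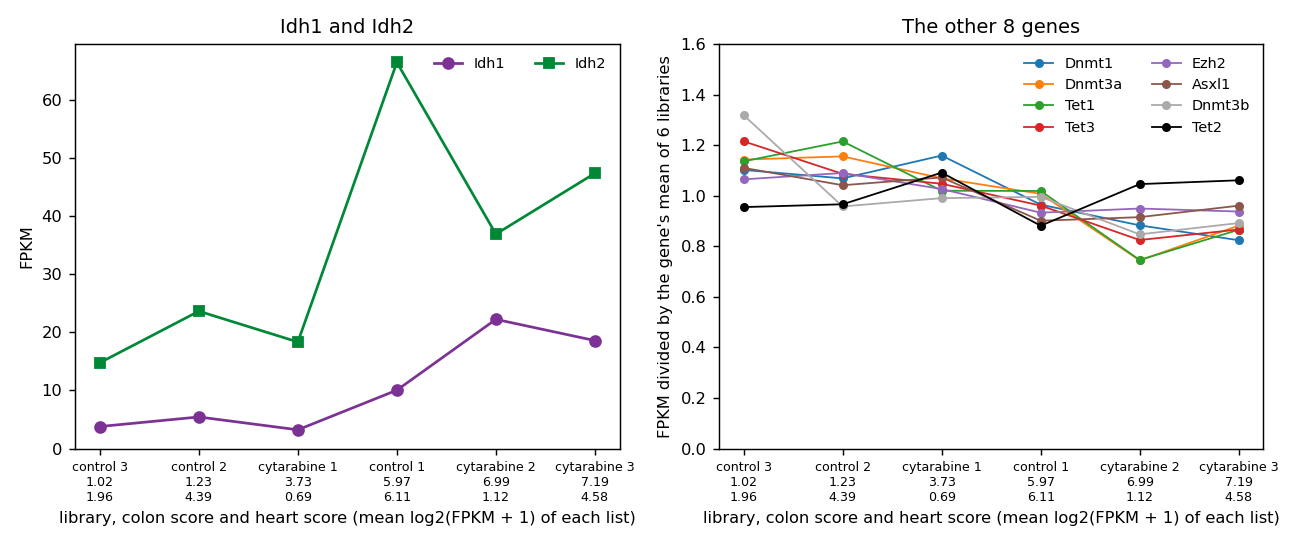
Libraries ordered by colon score (mean log2(FPKM + 1) of the colon genes, printed under each library above its heart score), with FPKM of Idh1 and Idh2 (left) and of the other 8 genes divided by each gene's mean over the 6 libraries (right). Idh1 and Idh2 are higher in the 3 libraries on the right of the axis, where 6 of the other 8 genes are lower.

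Within the sides the comparison of cytarabine with control has a single library in 1 group and no test. Neither the sides nor the division as a term hold colon transcript level, since its sum was higher with cytarabine on both sides. It was 421 FPKM in cytarabine 1 against 33.8 and 29.1 FPKM in control 2 and 3. On the other side it was 5501 and 5909 FPKM in cytarabine 2 and 3 against 2606 FPKM in control 1. Where colon transcript was low, cytarabine 1 differed from the mean of control 2 and 3 by -0.39 in log2(FPKM + 1) of Idh1. Where it was high, the mean of cytarabine 2 and 3 differed from control 1 by 0.95. For Idh2 these differences were -0.03 and -0.66. The difference of Tet2 was 0.14 and 0.19, so that Tet2 was higher with cytarabine on both sides. Those of Dnmt3a (-0.10 and -0.30), Tet1 (-0.16 and -0.25), Tet3 (-0.13 and -0.18) and Dnmt3b (-0.17 on both) were below 0 on both sides. Dnmt1 (0.09 and -0.18), Ezh2 (-0.07 and 0.02) and Asxl1 (-0.0040 and 0.06) changed sign. With the division as a term in limma, 379 of all genes (3.24%) and 0 of the 10 passed at an adjusted p under 0.05. The log2 fold change of Dnmt3a was then -0.20 (adjusted p = 0.235) and that of Tet3 -0.15 (adjusted p = 0.236), and those of Idh2 (-0.34) and Asxl1 (0.03) lay on the other side of 0.

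Leaving out cytarabine 1, on the side with little colon transcript, moved the counts of the 10 genes more than leaving out any other library. Without it, 4 of the 10 were at an unadjusted p under 0.05 in limma, against 4075 of all genes (34.8%). Their log2 fold changes were then 1.61 for Idh1 (adjusted p = 0.0741), -0.42 for Dnmt3a (adjusted p = 0.0814), -0.29 for Dnmt1 (adjusted p = 0.0890) and -0.34 for Tet3 (adjusted p = 0.110). None passed at an adjusted p under 0.05. In that comparison the groups of 7 of the 10 genes did not overlap, against 6533 of all genes (55.8%). Both remaining cytarabine libraries had much colon transcript and little neutrophil transcript, and the part of these in the values was not tested. The number of the 10 genes without overlap was 5 without control 1, against 41.9% of all genes, and 2 without control 2, against 29.3%.

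Cofactors of the methyltransferases and their relative Trdmt1 were described beside them. Of these 6 tested genes, 5 had a log2 fold change above 0, and at an unadjusted p under 0.05 0 were higher and 1 was lower. This was Uhrf2, a relative of Uhrf1, with FPKM values of 34.3, 32.5 and 32.2 after cytarabine, against 40.1, 35.5 and 39.9 in the controls (log2 fold change -0.21, adjusted p = 0.231 from limma). Uhrf1 ranged from 144 to 212 FPKM with overlap (log2 fold change 0.09). Hells, a chromatin remodeler needed for DNA methylation, had FPKM values of 61.3, 46.1 and 52.9 after cytarabine, against 43.6, 40.5 and 48.6 in the controls (log2 fold change 0.26, adjusted p = 0.330 from limma). Among 8 genes of readers of methylated CpG and their relatives, 0 were higher and 2 lower at an unadjusted p under 0.05. Mbd3, a relative of the readers and a subunit of the NuRD complex, had the smallest p of the 8. Its FPKM values were 53.5, 51.2 and 44.6 after cytarabine, against 60.3, 69.3 and 68.3 in the controls (log2 fold change -0.40, adjusted p = 0.166 from limma). Zbtb33, which encodes the reader Kaiso, had a log2 fold change of 0.18 (adjusted p = 0.363 from limma).

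Of 9 other genes of active demethylation, 2 were higher and 1 lower at an unadjusted p under 0.05. Ogt, the sugar transferase that binds TET proteins and is also a partner of BAP1, had FPKM values of 35.5, 40.4 and 40.6 after cytarabine, against 33.8, 25.6 and 31.6 in the controls. The groups did not overlap (log2 fold change 0.35, adjusted p = 0.233 from limma). Cxxc5, a CpG-binding protein, had FPKM values of 39.2, 30.5 and 31.5 after cytarabine, against 44.8, 48.1 and 46.4 in the controls (log2 fold change -0.46, adjusted p = 0.166 from limma). Tdg, the glycosylase that excises oxidized methylcytosine, ranged from 4.17 to 10.9 FPKM within the cytarabine group alone (log2 fold change 0.04). Of 19 other genes that make or use 2-oxoglutarate, 1 was higher and 1 lower. These were Aco1, the cytosolic aconitase upstream of IDH1 (log2 fold change 0.29, adjusted p = 0.231 from limma), and Got1, a transaminase (log2 fold change -0.27, adjusted p = 0.168 from limma).

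PRC2 and the BAP1 complex were described in the same way. Of 10 tested PRC2 genes besides Ezh2, 0 were higher and 1 lower at an unadjusted p under 0.05. The lower one was Phf19, an accessory subunit, with FPKM values of 36.8, 34.2 and 27.6 after cytarabine, against 38.7, 46.6 and 46.6 in the controls (log2 fold change -0.41, adjusted p = 0.222 from limma). Eed, the core subunit that binds the methyl mark, had FPKM values of 49.3, 44.7 and 42.3 after cytarabine, against 39.6, 41.0 and 39.2 in the controls. It did not overlap, with an unadjusted p of 0.0504 from limma (log2 fold change 0.18, adjusted p = 0.287). Suz12, the other core subunit, had a log2 fold change of -0.04 and Ezh1 one of 0.11, both with overlap. Of 9 partners of ASXL1 and BAP1, 2 were higher and 5 lower at an unadjusted p under 0.05. Bap1 itself had FPKM values of 30.2, 27.4 and 26.1 after cytarabine, against 32.7, 31.3 and 33.3 in the controls (log2 fold change -0.21, adjusted p = 0.237 from limma). Foxk2, a transcription factor that binds BAP1, had a log2 fold change of -0.30 (adjusted p = 0.211 from limma). Asxl2 had one of -0.06. None of the genes in these lists passed at an adjusted p under 0.05 in limma, and the counts at the unadjusted threshold stand beside the 17.4% of all genes that passed it.

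**Figure D4:**
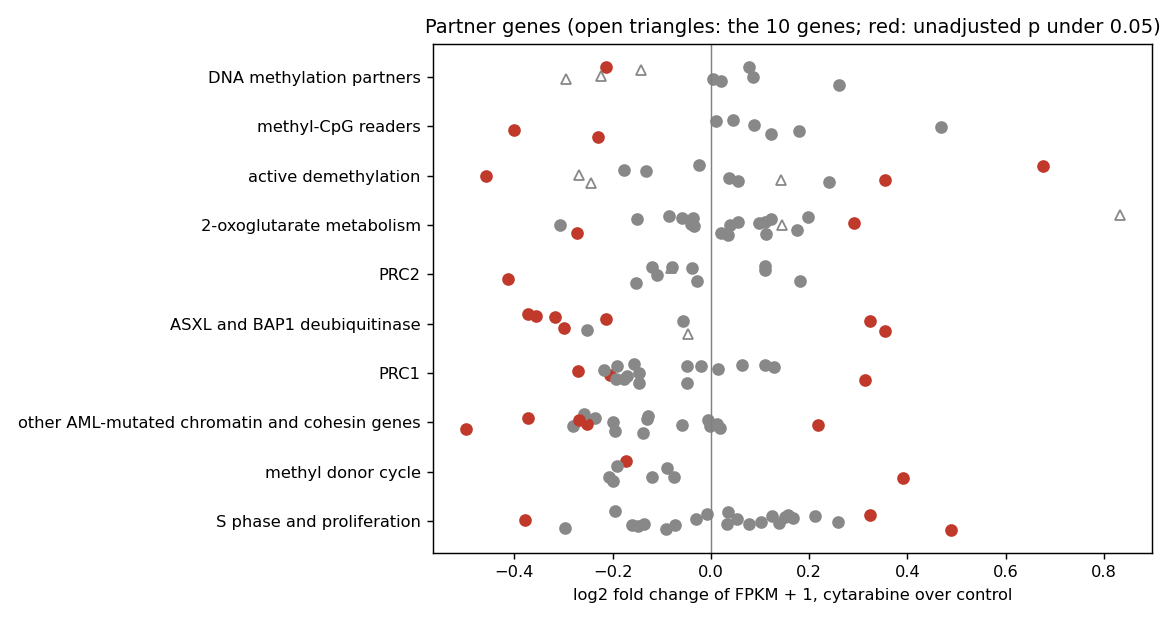
Log2 fold change of FPKM + 1, cytarabine over control (horizontal axis), of each tested gene in 10 lists, with the 10 genes as open triangles and genes at an unadjusted p under 0.05 in red. Vertical scatter within a list has no meaning. Most points lie within 0.5 of 0, and Idh1 lies farthest to the right.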

How the data were processed

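RNA-Seq was made from 6 libraries, 1 per mouse. Per the labels and the methods of the study, the authors mapped 75-base single-end reads of a stranded mRNA kit to mm10 with TopHat2 2.0.13, Bowtie2 2.2.3 and SAMtools 0.1.19, and deposited the FPKM values of Cufflinks 2.2.1 for each gene. The gene annotation and the counting options are not given in the sources used here. Groups and replicate numbers were taken from the source names.

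The test covered genes that averaged 1 FPKM or more, on log2(FPKM + 1), with limma 3.58.1 in R 4.3.3 (lmFit, eBayes with trend, two-sided, Benjamini-Hochberg over all tested genes). The deposited values are not counts, so no count test was run. Ratios were tested by exact permutation over libraries. The median-ratio and quantile scalings were applied to the deposited FPKM. For depth, the spacing of low FPKM values in 3607 single-transcript genes was used, assuming fragments of 200 bases, and 70.7 to 76.7% of low values lay within 0.1 of a whole read. Read estimates cover counting error only. The libraries were divided at the midpoint of the range of their colon score. The fit was also run on simulated data with known changes.

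The genes, the lists and the division were chosen with earlier results of these data known. The genes named are the 10 genes, 13 partners, and from each list the gene with the smallest p in each direction. Other genes named, such as cell markers, were chosen after their values were seen. Kmt2a is listed in the files as Mll1. Same-numbered libraries come from different mice, and their deviations from the mean of their group correlated at -0.709, -0.247 and -0.594, so the numbers were not taken as pairs. Some marker genes were not analysed here.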

Additional observations from a re-analysis of the deposited data

How the results depend on the processing

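With 3 mice a group, the values are compatible with any change within the intervals given above. The lowest estimated reads behind a value were 87.9 for Idh1, 269 for Idh2 and 281 for Tet2. None of the 10 genes passed at an adjusted p under 0.05 in limma under any alternative. Over all genes the number called was 1 with a pseudocount of 0.1, 2 without the trend, 379 with the colon division as a term and 0 to 5 when 1 library was left out. The number at an unadjusted p under 0.05 was 994 with the replicate block, 561 with the colon and heart scores as covariates, an alternative chosen after seeing the data, and 1179 to 4075 when 1 library was left out, and the number without overlap was then 3385 to 6533. For the 10 genes these leave-one-out ranges were 0 to 4 at an unadjusted p under 0.05 and 1 to 7 without overlap. The number of the 10 genes without overlap was 0 with a minimum mean of 5 FPKM, which removed Tet1 and Tet2 (against 2271 of the 8803 genes tested), 2 with median-of-ratios factors (against 2797 of 11703) and 0 with quantile normalization (against 2472 of 11703). The replicate block changed no other call, and its log2 fold change for Tet2 was 0.14 (adjusted p = 0.737 from limma).

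Reversed directions were Tet2 with quantile normalization (-0.13), Idh2 (-0.34) and Asxl1 (0.026) with the colon division as a term, and, with the 2 scores, Dnmt3a (0.12), Tet1 (0.052), Idh1 (-0.36), Idh2 (-0.46), Ezh2 (0.065) and Asxl1 (0.14). Leaving out 1 library gave Idh2 a range of -0.31 to 0.74, with -0.13 without cytarabine 3 and -0.31 without control 3. It gave Asxl1 a range of -0.13 to 0.017, with 0.0015 without cytarabine 2 and 0.017 without control 3. The log2 ratio of Asxl1 to Asxl2 ranged from -0.061 to 0.084, with -0.048 without cytarabine 2 and -0.061 without control 1. The cause was not tested. In limma, the 145 other alternative values of the 10 genes kept their direction and side of the threshold. Of the 20 values within 1 side of the colon division, which have no test, 6 had the opposite sign to the fold change over all libraries.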

Other observations

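Other chromatin genes were described beside the 10. Of 18 tested genes of Polycomb complex PRC1, which places ubiquitin on histone H2A, 1 was higher and 2 were lower at an unadjusted p under 0.05 in limma, where 890 of all 11703 genes were higher and 1148 lower, and 0 passed after adjustment. Kdm2b, which recruits a PRC1 variant to CpG islands, had FPKM values of 27.6, 24.7 and 23.4 after cytarabine, against 19.02, 19.3 and 21.9 in the controls (log2 fold change 0.31, adjusted p = 0.199 from limma). Bmi1, a core subunit, had FPKM values of 20.1, 18.7 and 18.0 after cytarabine, against 21.6, 21.6 and 22.6 in the controls (log2 fold change -0.21, adjusted p = 0.224 from limma). Neither gene overlapped between the groups. Of 18 other chromatin and cohesin genes mutated in AML, 1 was higher and 4 were lower. Setd2, a histone methyltransferase, had a log2 fold change of 0.22 (adjusted p = 0.192 from limma), and Crebbp, an acetyltransferase, one of -0.37 (adjusted p = 0.171 from limma). Mll1, the gene also called Kmt2a, had one of -0.28 with overlap, and the values of Stag2, a cohesin subunit, and of the demethylase gene Kdm6a were -0.13 and 0.02, also with overlap. In the libraries with much colon transcript 6 of the 18 PRC1 genes and 7 of these 18 were lower in every library and 0 were higher, against 17.2% of all tested genes in each direction.

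The genes that make the methyl donor of the DNMT enzymes included the smallest p of the chromatin-related lists. Mat2a, the catalytic subunit of methionine adenosyltransferase, had FPKM values of 126, 131 and 138 after cytarabine, against 102, 96.9 and 102 in the controls. The groups did not overlap, on both sides of the colon division (log2 fold change 0.39, standard error 0.06, adjusted p = 0.131 from limma). Mat2b, its regulatory subunit, had a log2 fold change of -0.17 (adjusted p = 0.283 from limma), and of the 8 genes of this cycle 1 was higher and 1 lower at an unadjusted p under 0.05. Of 24 genes of S phase and proliferation, 2 were higher and 1 was lower. Rrm2, a subunit of the ribonucleotide reductase that makes deoxynucleotides, had FPKM values of 287, 252 and 260 after cytarabine, against 164, 201 and 206 in the controls (log2 fold change 0.49, adjusted p = 0.155 from limma), and Aurkb, a mitotic kinase, had a log2 fold change of -0.38 with overlap (adjusted p = 0.278 from limma).

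Among the cell type lists the 10 neutrophil genes were lower in 7 cases and higher in 0 at an unadjusted p under 0.05, and the 9 tested T and NK cell genes were higher in 4 and lower in 0. Over all 11703 genes 890 were higher and 1148 lower at that threshold. Mmp8, a neutrophil collagenase, had a log2 fold change of -2.32 (adjusted p = 0.131 from limma), and Cd3d, a T cell receptor component, one of 0.86 (adjusted p = 0.136 from limma). Of the T and NK cell genes 4 had a value below 0, among them the other receptor components Cd3e (-0.29, adjusted p = 0.398 from limma) and Cd3g (-0.24, adjusted p = 0.357 from limma). Cd3g was at 449 to 652 FPKM in the sorted cells of all 6 libraries. Whether the leukemia cells or other cells made the transcripts of these lists was not tested. Nor was the part of other cells in the values of the 10 genes.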
